A study of Mus musculus with 48 samples.

Results

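The 10 genes described here are the major urinary protein genes Mup1, Mup3, Mup7, Mup8, Mup10, Mup13, Mup17, Mup20, Mup21 and Mup22, taken by symbol from the 40847 genes counted in mouse liver, where 15 further rows carry a Mup symbol. Poly(A) RNA of 48 livers, 1 mouse per library, was sequenced in 12 groups of 4, made by sex, genotype and dose of perfluorooctanesulfonic acid (PFOS), a persistent fluorinated surfactant. The doses were 0, 1 and 10 mg/kg/day (0-PFOS, 1-PFOS and 10-PFOS), given by gavage for 21 days in water with 0.5% Tween 20 to mice that were 10 to 12 weeks old and ate a diet with 18% of its energy as fat. The study was set up to compare doses within a genotype and genotypes within a dose. Every mouse, controls included, lacked Cyp2b9, Cyp2b10 and Cyp2b13. The hCYP2B6-Tg mice also carried a human CYP2B6/2A13/2F1 transgene, bred into that deletion line, and the Cyp2b-null mice did not. The 12 groups were thus hCYP2B6-Tg males, Cyp2b-null males, hCYP2B6-Tg females and Cyp2b-null females, each at the 3 doses. Since no mouse had an intact Cyp2b cluster, the data hold no wild-type reference for either genotype.

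Major urinary proteins are small lipocalins, barrel-shaped carriers with a pocket for volatile pheromones. Hepatocytes make and secrete them, the kidney filters them into urine, and the scent marks they form tell other mice about sex and individual identity. In mouse liver they are a textbook example of male-biased expression, which depends on the pulsed growth hormone of males acting through the transcription factor STAT5B, and testosterone, thyroid hormone and glucocorticoids also raise them. Most copies lie in 1 cluster on chromosome 4 and are nearly identical, while Mup20, Mup3 and Mup21 have diverged further. Mup20 encodes darcin, the male pheromone that attracts females.

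The sequences show which of the 10 genes short reads can tell apart. A stretch of 60 coding bases is printed for all 10 because it covers the whole range, with capitals at each base that differs from Mup7. It was read from GENCODE transcripts on build GRCm38, whereas the counts were made on GRCm39, so the positions belong to the sequences and not to the counting.
Mup7 (chr4:60069777-60069836, strand -): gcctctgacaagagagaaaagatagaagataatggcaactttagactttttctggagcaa
Mup1 (chr4:60501326-60501385, strand -): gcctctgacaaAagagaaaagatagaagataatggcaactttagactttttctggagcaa
Mup8 (chr4:60221946-60222005, strand -): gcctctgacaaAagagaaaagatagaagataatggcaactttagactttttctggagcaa
Mup10 (chr4:60581565-60581624, strand -): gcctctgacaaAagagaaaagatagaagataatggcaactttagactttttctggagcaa
Mup22 (chr4:60820892-60820951, strand -): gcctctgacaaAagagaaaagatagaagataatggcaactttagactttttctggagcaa
Mup13 (chr4:61227637-61227696, strand -): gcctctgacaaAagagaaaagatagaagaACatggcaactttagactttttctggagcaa
Mup17 (chr4:61595237-61595296, strand -): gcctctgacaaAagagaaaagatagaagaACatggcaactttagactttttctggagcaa
Mup20 (chr4:62053524-62053583, strand -): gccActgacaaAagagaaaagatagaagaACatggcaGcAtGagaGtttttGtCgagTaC
Mup3 (chr4:62086844-62086903, strand -): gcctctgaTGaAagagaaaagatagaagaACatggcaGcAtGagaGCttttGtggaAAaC
Mup21 (chr4:62150239-62150298, strand -): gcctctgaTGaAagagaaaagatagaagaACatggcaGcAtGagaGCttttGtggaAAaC
Mup1, Mup8, Mup10 and Mup22 were identical to each other here and differed from Mup7 at 1 base, and Mup13 and Mup17 differed from it at 3. Mup20 differed at 12 bases and Mup3 and Mup21 at 14.

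Over the whole coding sequence, the 21 pairs among Mup1, Mup7, Mup8, Mup10, Mup13, Mup17 and Mup22 were 98.2 to 99.3% identical. Mup20 was 90.1 to 91.2% identical to these 7 copies, Mup3 82.6 to 83.8% and Mup21 83.9 to 85.0%, and Mup3 and Mup21 were 94.7% identical to each other. Of all stretches of 150 bases, the length of a read, 100% of those in Mup22 also occurred in another Mup gene among 48 compared, against 40.4% in Mup17, 31.1% in Mup20 and 0% in Mup3 and Mup21. The other copies ranged from 63.1% in Mup8 to 84.4% in Mup10. Within a library the count of each of the 7 copies was 0.940 to 1.23 times the median of the 7 in all 48 libraries, whereas the ratio ran from 0.259 to 5.65 for Mup20, from 0.124 to 1.14 for Mup3 and from 0.0342 to 0.334 for Mup21. The 7 copies are therefore given below as 1 measurement, shown by Mup7, and Mup3, Mup20 and Mup21 as measurements of their own. The sources used here do not say how a read that matches several copies was counted, and values of single copies among the 7 are uncertain for that reason.

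Promoters in RefSeq (GRCm38.p6, a window over the annotated start, mostly upstream) matched 5 of the 10 genes. Mup17, from the 7 near-identical copies, and Mup3, from the diverged genes, are printed because the windows of Mup10 and Mup21 closely resembled them, with capitals at the motifs TATATAA and TGTTCT.
Mup17 (chr4:61595783-61596082, strand -): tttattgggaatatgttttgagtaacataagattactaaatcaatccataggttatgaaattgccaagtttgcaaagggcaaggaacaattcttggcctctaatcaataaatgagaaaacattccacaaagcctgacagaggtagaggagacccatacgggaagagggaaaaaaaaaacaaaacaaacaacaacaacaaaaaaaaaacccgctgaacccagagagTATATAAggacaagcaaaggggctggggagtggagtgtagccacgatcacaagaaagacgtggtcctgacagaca
Mup3 (chr4:62087268-62087567, strand -): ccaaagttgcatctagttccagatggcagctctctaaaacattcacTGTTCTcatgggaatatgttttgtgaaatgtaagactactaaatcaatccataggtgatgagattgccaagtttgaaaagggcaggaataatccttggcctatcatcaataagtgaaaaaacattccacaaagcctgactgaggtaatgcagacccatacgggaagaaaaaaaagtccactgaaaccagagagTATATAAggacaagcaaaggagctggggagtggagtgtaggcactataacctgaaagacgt
The motifs were searched on both strands. The STAT5 palindrome TTCNNNGAA was in 0 of the 5 windows, against 8.30% of 32851 promoters. The core promoter motif TATATAA, which was chosen after the windows had been read, was in 4 of 5, in Mup3, Mup10, Mup17 and Mup21, against 3.24% of all promoters. TGTTCT, the half-site of the glucocorticoid receptor, was in Mup3 and Mup21 alone among the 5, against 19.0% of all promoters. Of 38 windows with a Mup symbol, TATATAA was in 14 and TGTTCT in 23. The windows of Mup10 and Mup17 begin at or past the bases that align with TGTTCT in Mup3, so they cannot show it at that place. A match is only a match of letters in this window. The windows of Mup10 and Mup17 were 91.2% identical and those of Mup3 and Mup21 90.2%. The window of Mup7 was 36.3 to 50.4% identical to the other 4, but it lay further upstream. Its last bases recur in the Mup17 window before TATATAA, so neither its low identity nor its lack of that motif shows divergence.

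The libraries held 44416597 to 82615862 counts each. All 10 genes passed the filter for testing in both sexes. The liver label was borne out by the 6 hepatocyte markers fixed as a list (summed level 33318 to 48361 CPM, counts per 1000000 counts of the scaled library, in the 16 10-PFOS livers, and 72908 to 100597 in the 16 0-PFOS livers), while neutrophil and T cell markers summed to at most 2.75 and 3.23 CPM in any library of any dose. Reads were assigned to the genes labelled as deleted, with Cyp2b9 at 20.4 to 34.9 CPM in 10-PFOS livers and 0.514 to 3.16 CPM in 0-PFOS livers, Cyp2b10 at 10.8 to 20.3 CPM and 0.324 to 1.56 CPM, and Cyp2b13 at 3.89 to 7.40 CPM and 0.0308 to 0.950 CPM, and the human transgene has no row. The library of hCYP2B6-Tg female 0-PFOS replicate 1 had the highest summed level of the 10 genes in its group (53350 CPM, against 5621 to 17372 CPM). Called values of the 10 genes that move by more than 1.5 times without it are given both ways. In bulk liver, fewer hepatocytes and less Mup RNA per hepatocyte cannot be told apart.

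At 10-PFOS every one of the 10 genes was lower than at 0-PFOS in both sexes and both genotypes. The median log2 fold change over the 10 was -6.30 in hCYP2B6-Tg males, -6.15 in Cyp2b-null males, -3.61 in hCYP2B6-Tg females and -4.36 in Cyp2b-null females, where the median over all tested genes was between -0.05 and -0.01. Differences were called at a Benjamini-Hochberg adjusted p below 0.05 in edgeR's quasi-likelihood test over all tested genes. In males 10 of 10 were called lower in the hCYP2B6-Tg group, against 23.9% of all 12594 genes tested in males, and 10 of 10 in the Cyp2b-null group, against 21.6%. In hCYP2B6-Tg females 10 of 10 were called lower, against 24.5% of all 13193 genes tested in females, and in Cyp2b-null females 10 of 10, against 17.8%. The share of all tested genes whose 10-PFOS livers all lay below the 0-PFOS livers was 20.4% in hCYP2B6-Tg males, 18.1% in Cyp2b-null males, 20.3% in hCYP2B6-Tg females and 18.1% in Cyp2b-null females, and the groups below are read beside these shares.

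**Figure D1:**
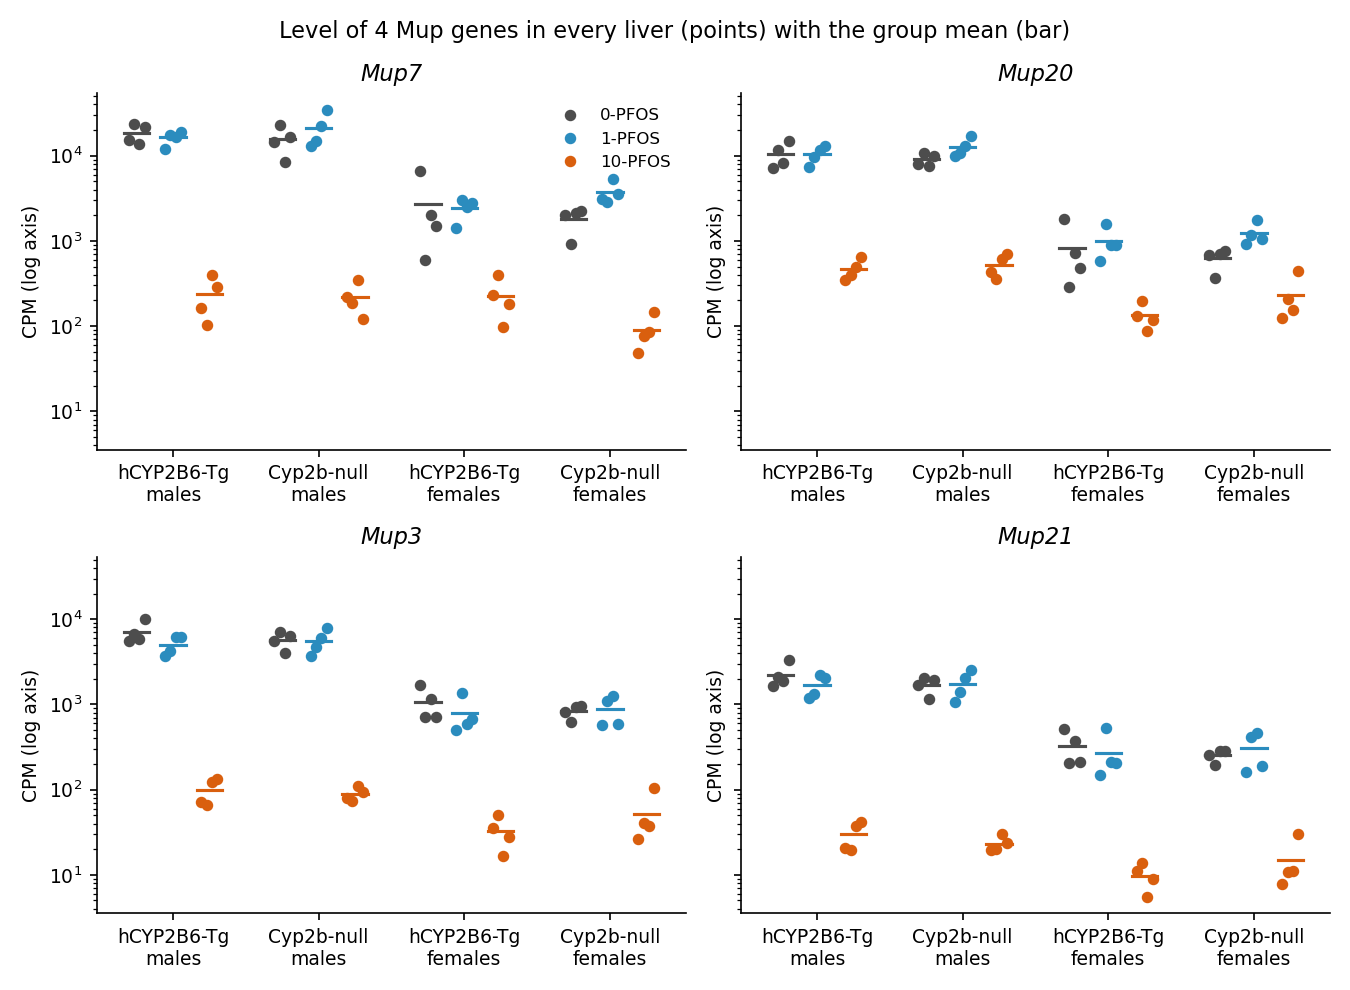
Levels (CPM, log axis) of Mup7, Mup20, Mup3 and Mup21 in each of the 48 livers by sex, genotype and dose, 1 point per mouse. The 10-PFOS livers lie below the 0-PFOS and 1-PFOS livers of their own group in every panel, apart from Mup20 in Cyp2b-null females, where 441 CPM in 1 liver at 10-PFOS exceeds 369 CPM in 1 liver at 0-PFOS.

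Mup7 stands here for the 7 near-identical copies. Its levels in hCYP2B6-Tg males were 164, 104, 394 and 287 CPM at 10-PFOS, against 15366, 23473, 13573 and 22001 CPM at 0-PFOS. In Cyp2b-null males they were 220, 189, 350 and 121 CPM at 10-PFOS, against 14296, 23121, 8535 and 16618 CPM at 0-PFOS. The highest treated male liver was thus more than an order of magnitude below the lowest untreated one. The fold change of Mup7 was -6.33 ± 0.47 on the log2 scale (SE, adjusted p = 1.02e-10 in edgeR) in hCYP2B6-Tg males and -6.17 ± 0.46 (adjusted p = 1.70e-10) in Cyp2b-null males. Among the 7 copies the fold change ran from -6.35 for Mup13 to -6.18 for Mup22 in hCYP2B6-Tg males, and from -6.17 for Mup7 to -6.03 for Mup22 in Cyp2b-null males.

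In females the untreated levels were lower. Mup7 had 233, 394, 98.0 and 184 CPM in hCYP2B6-Tg females at 10-PFOS, against 6678, 603, 2038 and 1495 CPM at 0-PFOS. It had 48.7, 77.3, 85.2 and 146 CPM in Cyp2b-null females at 10-PFOS, against 2020, 915, 2119 and 2253 CPM at 0-PFOS. The groups did not overlap in either genotype, and the untreated hCYP2B6-Tg females spread widely around their mean. The log2 fold change of Mup7 was -3.59 ± 0.56 (SE, adjusted p = 1.64e-05 in edgeR) in hCYP2B6-Tg females and -4.37 ± 0.58 (adjusted p = 2.84e-06) in Cyp2b-null females. Without hCYP2B6-Tg female 0-PFOS replicate 1 the value for hCYP2B6-Tg females was -2.61 (adjusted p = 6.44e-05). With all livers it ran, among the 7 copies, from -3.61 for Mup22 to -3.57 for Mup1 in hCYP2B6-Tg females, and from -4.40 for Mup22 to -4.30 for Mup1 in Cyp2b-null females.

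Mup20, the darcin gene, had a smaller fitted fold change than Mup7 in each of the 4 groups. In hCYP2B6-Tg males it had 345, 400, 489 and 650 CPM at 10-PFOS, against 7163, 11585, 8221 and 15043 CPM at 0-PFOS. In Cyp2b-null males it had 429, 358, 607 and 702 CPM at 10-PFOS, against 7967, 10784, 7548 and 10036 CPM at 0-PFOS. The male groups did not overlap, and the log2 fold change was -4.51 ± 0.29 (SE, adjusted p = 9.62e-12 in edgeR) in hCYP2B6-Tg males and -4.13 ± 0.28 (adjusted p = 3.82e-11) in Cyp2b-null males. In hCYP2B6-Tg females Mup20 had 130, 199, 88.2 and 118 CPM at 10-PFOS, against 1798, 292, 724 and 479 CPM at 0-PFOS, a log2 fold change of -2.63 ± 0.47 (adjusted p = 8.58e-05), which was -1.91 (adjusted p = 0.000633) without hCYP2B6-Tg female 0-PFOS replicate 1. In Cyp2b-null females it had 123, 205, 154 and 441 CPM at 10-PFOS, against 684, 369, 700 and 764 CPM at 0-PFOS. These last groups overlapped, since 1 treated liver was above 1 untreated liver, and the log2 fold change was -1.46 ± 0.45 (adjusted p = 0.0135). This call was lost without Cyp2b-null female 10-PFOS replicate 1 (-1.24, adjusted p = 0.0537).

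Mup3 and Mup21, the pair that share no read-length stretch with another copy, were also lower. Mup3 had 70.9, 66.5, 122 and 134 CPM in hCYP2B6-Tg males at 10-PFOS, against 5594, 6648, 5870 and 10123 CPM at 0-PFOS. In Cyp2b-null males it had 79.1, 74.1, 111 and 94.4 CPM at 10-PFOS, against 5603, 7011, 3960 and 6343 CPM at 0-PFOS. Neither pair of male groups overlapped, and the log2 fold changes of Mup3 were -6.20 ± 0.32 (SE, adjusted p = 3.54e-13 in edgeR) in hCYP2B6-Tg males and -6.01 ± 0.32 (adjusted p = 4.91e-13) in Cyp2b-null males. In hCYP2B6-Tg females Mup3 had 34.99, 50.04, 16.6 and 27.9 CPM at 10-PFOS, against 1683, 705, 1167 and 711 CPM at 0-PFOS. In Cyp2b-null females it had 26.6, 41.0, 37.1 and 104 CPM at 10-PFOS, against 825, 622, 930 and 947 CPM at 0-PFOS. These groups did not overlap either, with log2 fold changes of -5.05 ± 0.48 (adjusted p = 1.70e-08) in hCYP2B6-Tg females and -4.01 ± 0.45 (adjusted p = 3.30e-07) in Cyp2b-null females.

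Mup21 had 20.7, 19.5, 37.8 and 41.5 CPM in hCYP2B6-Tg males at 10-PFOS, against 1662, 2082, 1908 and 3312 CPM at 0-PFOS, and 19.6, 20.0, 29.7 and 23.6 CPM in Cyp2b-null males at 10-PFOS, against 1684, 2065, 1153 and 1948 CPM at 0-PFOS. In hCYP2B6-Tg females it had 10.99, 13.8, 5.49 and 8.93 CPM at 10-PFOS, against 521, 207, 369 and 210 CPM at 0-PFOS. In Cyp2b-null females it had 7.85, 10.8, 11.1 and 29.9 CPM at 10-PFOS, against 252, 196, 284 and 285 CPM at 0-PFOS. None of the 4 pairs of groups overlapped. The log2 fold changes were -6.26 ± 0.35 (SE, adjusted p = 1.26e-12 in edgeR) in hCYP2B6-Tg males, -6.22 ± 0.35 (adjusted p = 1.92e-12) in Cyp2b-null males, -5.07 ± 0.51 (adjusted p = 4.14e-08) in hCYP2B6-Tg females and -4.10 ± 0.48 (adjusted p = 6.05e-07) in Cyp2b-null females. Mup3 and Mup21 moved together from liver to liver, with r = 0.993 between the deviations of their log2 CPM from the group means over the 24 male livers and r = 0.984 over the 24 female livers, given as a description since the values share libraries and depth.

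**Figure D2:**
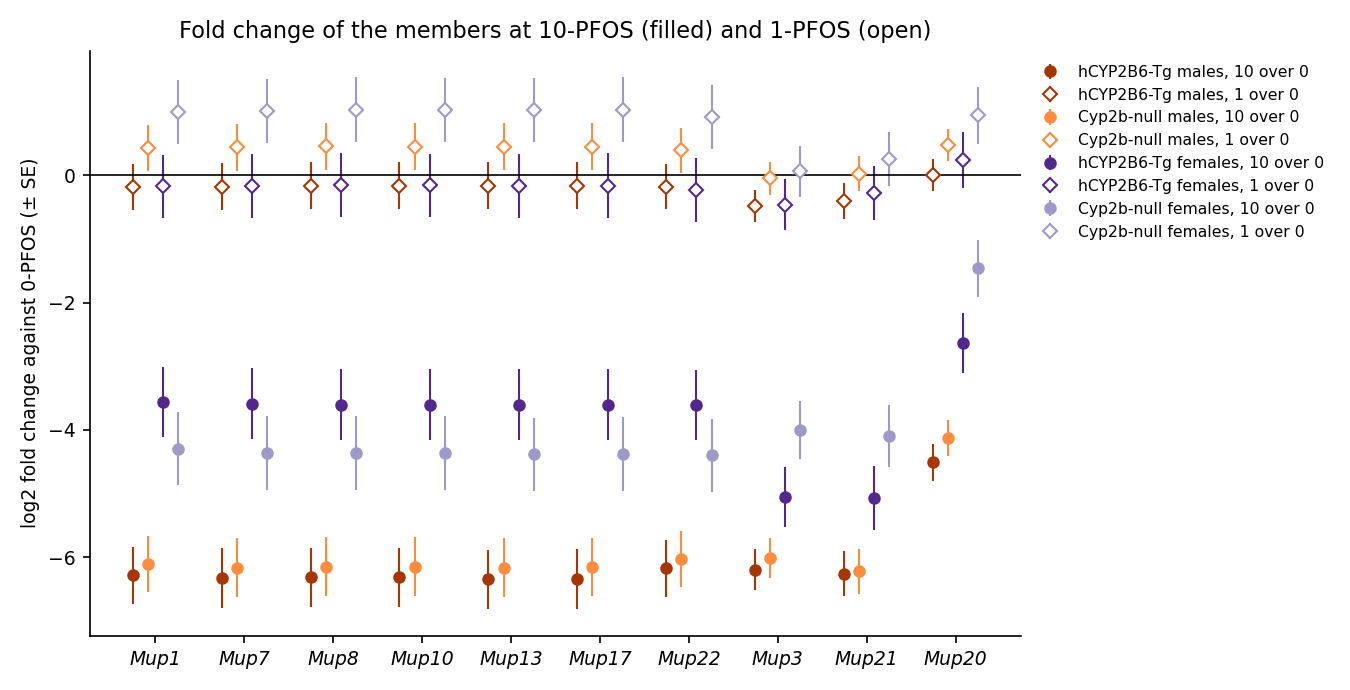
Log2 fold changes with standard errors of the 10 genes at 10-PFOS and at 1-PFOS, each against 0-PFOS, in the 4 combinations of sex and genotype. All 10-PFOS points lie below 0 and the 1-PFOS points lie between -0.48 and 1.03.

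Summed over the 10 genes, the level in hCYP2B6-Tg males was 2332 ± 1071 CPM at 10-PFOS, against 153322 ± 39057 CPM at 0-PFOS (SD, n = 4 each), a log2 ratio of the means of -6.04. In Cyp2b-null males it was 2265 ± 729 CPM at 10-PFOS, against 129236 ± 45703 CPM at 0-PFOS, a log2 ratio of -5.83. In hCYP2B6-Tg females it was 1841 ± 972 CPM at 10-PFOS, against 22201 ± 21318 CPM at 0-PFOS, a log2 ratio of -3.59. The sum was 53350 CPM in hCYP2B6-Tg female 0-PFOS replicate 1 and 5621 to 17372 CPM in the other 3 livers of that group, and without that library the log2 ratio was -2.68. In Cyp2b-null females the sum was 960 ± 486 CPM at 10-PFOS, against 15236.5 ± 4935.3 CPM at 0-PFOS, a log2 ratio of -3.99. The sum is a description with no test, and if a shared read was counted at several copies it overstates the amount of Mup RNA.

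All 25 Mup rows together took 0.273 to 0.821% of the counts of a library in hCYP2B6-Tg males at 10-PFOS, against 23.3 to 32.5% at 0-PFOS. In Cyp2b-null males the share was 0.373 to 0.726% at 10-PFOS, against 16.1 to 30.4% at 0-PFOS. In hCYP2B6-Tg females it was 0.196 to 0.724% at 10-PFOS, against 1.44 to 12.4% at 0-PFOS, and in Cyp2b-null females 0.122 to 0.405%, against 2.09 to 4.74%. The family thus took at least 16.1% of the counts in every untreated male library and at most 0.821% in every 10-PFOS library. A share this large weighs on the scaling of the other genes, and a scaling factor computed without the Mup rows left all calls of the 10 genes as they were.

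**Figure D3:**
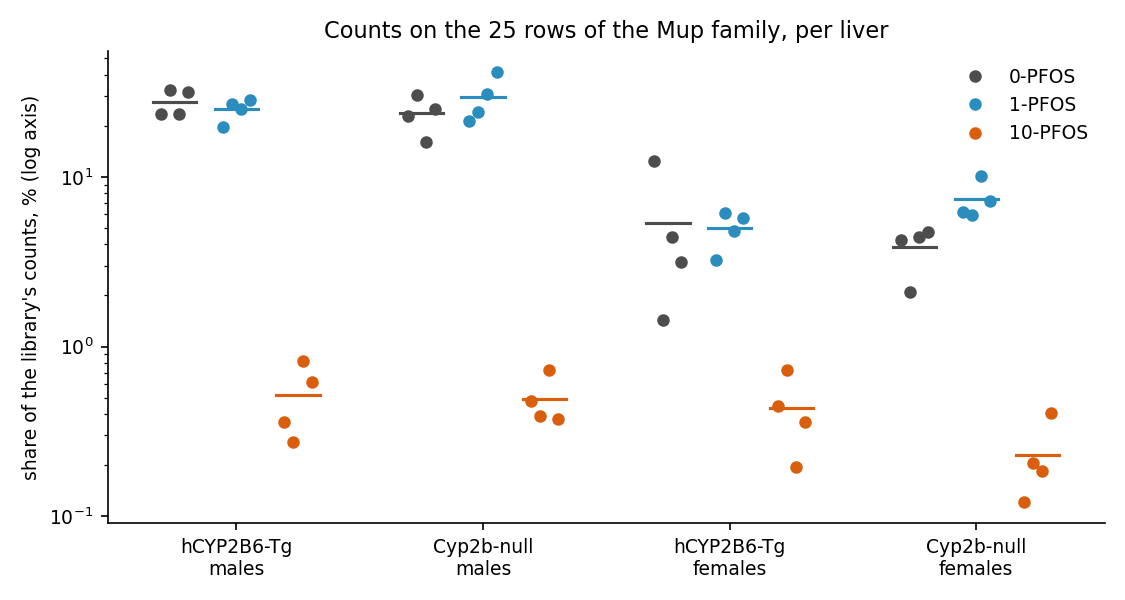
Share of each library's counts assigned to the 25 Mup rows (percent, log axis) in the 48 livers by sex, genotype and dose. The 10-PFOS livers of both sexes sit at or below 0.821%, and the male livers at 0-PFOS and 1-PFOS sit between 16.1 and 41.4%.

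The step from 1-PFOS to 10-PFOS was tested by itself. Against 1-PFOS, the 10-PFOS livers were lower for 10 of 10 genes in hCYP2B6-Tg males (19.5% of all genes called lower), in Cyp2b-null males (19.0%), in hCYP2B6-Tg females (19.0%) and in Cyp2b-null females (16.8%). The log2 fold changes of this step ran from -6.19 for Mup13 to -4.52 for Mup20 in hCYP2B6-Tg males, from -6.62 for Mup13 to -4.61 for Mup20 in Cyp2b-null males, from -4.79 for Mup21 to -2.88 for Mup20 in hCYP2B6-Tg females, and from -5.42 for Mup13 to -2.41 for Mup20 in Cyp2b-null females. Mup20 was at the small end in all 4.

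At 1-PFOS none of the 10 genes differed from 0-PFOS past the threshold. In hCYP2B6-Tg males 0 of 10 were called, where 5.98% of all genes were called lower, and the log2 fold changes were -0.48 to 0.01. In Cyp2b-null males 0 of 10 were called (1.30% of all genes lower), with fold changes of -0.05 to 0.48. In hCYP2B6-Tg females 0 of 10 were called (0.584% of all genes lower), with fold changes of -0.46 to 0.25. In Cyp2b-null females 0 of 10 were called (0.265% of all genes lower), with fold changes of 0.07 to 1.03. These shares count genes called lower only, and beside shares this small a count of 0 of 10 says little. At an unadjusted p below 0.05 edgeR counted 1 of 10 in Cyp2b-null females (7.997% of all genes higher) and 0 in the other 3 combinations, and DESeq2 called 0 in all 4.

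In Cyp2b-null females the 7 copies and Mup20 had higher values at 1-PFOS than any 0-PFOS liver, without passing the test. Mup7 had 3105, 2832, 5356 and 3568 CPM at 1-PFOS, against 2020, 915, 2119 and 2253 CPM at 0-PFOS, a log2 fold change of 1.01 ± 0.51 (SE, adjusted p = 0.357 in edgeR). Mup20 had 908, 1160, 1764 and 1066 CPM at 1-PFOS, against 684, 369, 700 and 764 CPM at 0-PFOS (0.95 ± 0.45, adjusted p = 0.333). These groups did not overlap, as held for 6.09% of all genes in this direction, and the 7 copies count as 1 measurement. Mup3 gave 573, 1084, 1268 and 594 CPM at 1-PFOS, against 825, 622, 930 and 947 CPM at 0-PFOS, with overlap (0.07 ± 0.40, adjusted p = 0.954). Mup21 had 162, 414, 462 and 191 CPM at 1-PFOS, against 252, 196, 284 and 285 CPM at 0-PFOS, again with overlap.

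In the other 3 combinations the 1-PFOS and 0-PFOS livers overlapped for all 10 genes. Mup7 had 12138, 17669, 16629 and 19203 CPM in hCYP2B6-Tg males at 1-PFOS and 12839, 14943, 22619 and 34688 CPM in Cyp2b-null males at 1-PFOS, of which 1 value lay above the range of 8535 to 23473 CPM seen in untreated males. In hCYP2B6-Tg females at 1-PFOS it had 1433, 2986, 2507 and 2792 CPM. Mup20 had 7425, 9713, 11781 and 13155 CPM in hCYP2B6-Tg males at 1-PFOS, 9887, 10813, 13103 and 16866 CPM in Cyp2b-null males and 581, 1571, 899 and 895 CPM in hCYP2B6-Tg females. Mup3 had 3652, 4265, 6107 and 6166 CPM in hCYP2B6-Tg males at 1-PFOS, 3660, 4681, 6000 and 7859 CPM in Cyp2b-null males and 499, 1371, 584 and 678 CPM in hCYP2B6-Tg females. Mup21 ranged from 1176 to 2194 CPM in hCYP2B6-Tg males at 1-PFOS. It lay between 1057 and 2502 CPM in Cyp2b-null males, with a range of 150 to 525 CPM in hCYP2B6-Tg females. The summed log2 ratio of 1-PFOS to 0-PFOS was -0.18 in hCYP2B6-Tg males, 0.42 in Cyp2b-null males, -0.15 in hCYP2B6-Tg females and 0.97 in Cyp2b-null females. The value for hCYP2B6-Tg females turned to 0.76 without hCYP2B6-Tg female 0-PFOS replicate 1.

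The sexes differed in all 10 genes at a dose of 0. At 0-PFOS males were higher than females for 10 of 10 genes in hCYP2B6-Tg mice, against 9.19% of 13271 genes tested over both sexes, and for 10 of 10 in Cyp2b-null mice, against 5.45%. Mup20 had the largest sex difference of the 10, with log2 fold changes, males over females, of 3.67 ± 0.42 (SE, adjusted p = 1.31e-08 in edgeR) in hCYP2B6-Tg mice and 3.85 ± 0.42 (adjusted p = 5.38e-09) in Cyp2b-null mice. Mup7 differed by 2.78 ± 0.50 and 3.10 ± 0.50 in the same genotypes, Mup3 by 2.73 and 2.79, and Mup21 by 2.78 and 2.75. Without hCYP2B6-Tg female 0-PFOS replicate 1 the values for hCYP2B6-Tg mice were 3.78 for Mup7 and 4.42 for Mup20. No male liver at 0-PFOS overlapped a female liver of its genotype at 0-PFOS for any of the 10, as held in this direction for 9.64% of all genes in hCYP2B6-Tg mice and 10.7% in Cyp2b-null mice. At 1-PFOS males were again higher for 10 of 10 genes in hCYP2B6-Tg mice (7.78% of all genes) and in Cyp2b-null mice (7.66%), with Mup20 at 3.41 and 3.37.

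At 10-PFOS the sex difference had fewer calls. In hCYP2B6-Tg mice 3 of 10 genes were still called higher in males (4.37% of all genes), namely Mup20 (1.81 ± 0.39, adjusted p = 0.00319), Mup3 (1.60 ± 0.37, adjusted p = 0.00539) and Mup21 (1.61 ± 0.40, adjusted p = 0.0106), and for these 3 the male and female livers did not overlap (8.30% of all genes). Mup7 differed by 0.06 ± 0.47 (adjusted p = 0.956), with males and females overlapping. In Cyp2b-null mice 0 of 10 were called at 10-PFOS (0.399% of all genes) by edgeR and by DESeq2, with log2 fold changes of 0.64 for Mup21 to 1.31 for Mup13. An unadjusted p below 0.05 in edgeR was reached by 9 of 10, against 5.33% of all genes in this direction. The 7 copies are among these 9 and count as 1 measurement. Without Cyp2b-null female 10-PFOS replicate 4, whose Mup levels were the highest of its group, 2 of the 10 were called.

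The difference between the sexes in the response was tested as an interaction. For 10-PFOS, 8 of 10 genes were called in hCYP2B6-Tg mice, against 6.50% of all genes, and 3 of 10 in Cyp2b-null mice, against 0.949%, all with a larger fall in males. The 8 in hCYP2B6-Tg mice were the 7 copies and Mup20, with Mup7 at -2.72 ± 0.67 (adjusted p = 0.00964 in edgeR) and Mup20 at -1.86 ± 0.54 (adjusted p = 0.0280), while Mup3 was at -1.13 ± 0.51 (adjusted p = 0.186) and Mup21 at -1.17 ± 0.55 (adjusted p = 0.208). Without hCYP2B6-Tg female 0-PFOS replicate 1 the interaction was -3.73 for Mup7 and -2.62 for Mup20. In Cyp2b-null mice the 3 were Mup20 at -2.67 ± 0.54 (adjusted p = 0.00444), Mup3 at -2.003 ± 0.51 (adjusted p = 0.0399) and Mup21 at -2.12 ± 0.55 (adjusted p = 0.0460), and Mup7 was at -1.80 ± 0.66 (adjusted p = 0.234). The 8 calls in hCYP2B6-Tg mice became 0 in a fit of the compared groups only (adjusted p 0.0528 to 0.0676), and the 3 in Cyp2b-null mice became 1, Mup20, when any of 11 single livers was left out. For 1-PFOS the interaction was called for 0 of 10 in hCYP2B6-Tg mice (0.241% of all genes) and 0 of 10 in Cyp2b-null mice (0.0226%), with 0 at an unadjusted p below 0.05 and 0 in DESeq2 in both.

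**Figure D4:**
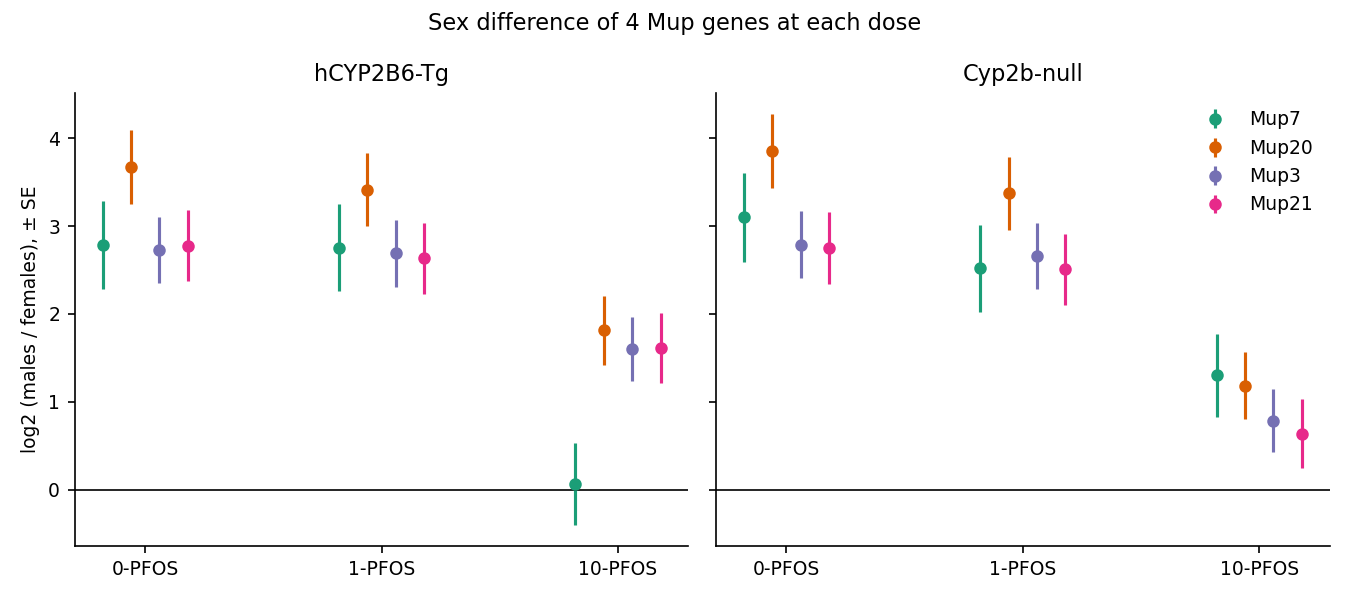
Log2 fold changes with standard errors, males over females, of Mup7, Mup20, Mup3 and Mup21 at 0-PFOS, 1-PFOS and 10-PFOS in hCYP2B6-Tg and Cyp2b-null mice. The points lie at or above 2.38 at 0-PFOS and 1-PFOS, and at or below 1.81 at 10-PFOS.

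The genotypes were compared at each dose, hCYP2B6-Tg over Cyp2b-null. In males 0 of 10 genes were called at 0-PFOS (0% of all genes), 0 of 10 at 1-PFOS (0.889%) and 0 of 10 at 10-PFOS (0.0556%), and in females 0 of 10 at 0-PFOS (0%), 0 of 10 at 1-PFOS (0%) and 0 of 10 at 10-PFOS (3.59%). The interaction of genotype with dose was called for 0 of 10 genes in males at 1-PFOS (0.0556%) and 10-PFOS (0%), and for 0 of 10 in females at 1-PFOS (0%) and 10-PFOS (0%). DESeq2 also called 0 in each. At an unadjusted p below 0.05 edgeR counted 0 in every one of these comparisons apart from females at 10-PFOS, where it counted the 7 copies (8.25% of all genes higher). Mup7 was there at 1.34 ± 0.51 (SE, adjusted p = 0.147 in edgeR) and lay in the opposite direction from Mup20 (-0.79 ± 0.44, adjusted p = 0.358), Mup3 (-0.69 ± 0.41, adjusted p = 0.382) and Mup21 (-0.61 ± 0.44, adjusted p = 0.491).

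This contrast in females at 10-PFOS was followed within each library, as the count of a gene relative to the median count of the 7 copies, a comparison chosen after its values were seen. For Mup20 the ratio was 0.544, 0.494, 0.877 and 0.621 in hCYP2B6-Tg females at 10-PFOS, against 2.40, 2.59, 1.77 and 2.97 in Cyp2b-null females at 10-PFOS. For Mup3 it was 0.146, 0.124, 0.165 and 0.147 in hCYP2B6-Tg females, against 0.519, 0.517, 0.425 and 0.699 in Cyp2b-null females. For Mup21 it was 0.0459, 0.0342, 0.0546 and 0.047 in hCYP2B6-Tg females, against 0.153, 0.136, 0.127 and 0.201 in Cyp2b-null females. The genotypes did not overlap for any of the 3 genes. The differences of the mean log2 ratio were -1.95 for Mup20, -1.88 for Mup3 and -1.76 for Mup21, each with an exact two-sided permutation p of 0.0286, the smallest that 4 against 4 allows, and 0.0952 after adjustment over 30 such comparisons. At 0-PFOS, at 1-PFOS and in males at any dose the same ratios gave exact p of at least 0.2 between the genotypes.

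Set against dose, the ratio of Mup20 to the copies was higher at 10-PFOS in all 4 combinations. In hCYP2B6-Tg males it was 2.07, 3.80, 1.22 and 2.22 at 10-PFOS, against 0.457, 0.487, 0.591 and 0.672 at 0-PFOS. In Cyp2b-null males it was 1.88, 1.85, 1.69 and 5.65 at 10-PFOS, against 0.547, 0.459, 0.863 and 0.589 at 0-PFOS. In hCYP2B6-Tg females at 0-PFOS it was 0.259, 0.470, 0.341 and 0.309 and in Cyp2b-null females at 0-PFOS 0.328, 0.391, 0.319 and 0.327, below the 10-PFOS values of their own genotype given above. The 10-PFOS and 0-PFOS livers did not overlap in any combination, with differences of the mean log2 ratio of 1.98 in hCYP2B6-Tg males, 2.01 in Cyp2b-null males, 0.88 in hCYP2B6-Tg females and 2.81 in Cyp2b-null females (exact permutation p = 0.0286 each, 0.0952 adjusted over the same 30). The ratios of Mup3 and Mup21 differed between 10-PFOS and 0-PFOS by -1.83 and -1.80 in hCYP2B6-Tg females (exact p = 0.0286 each) and by -0.03 to 0.24 in the other 3 combinations (exact p of at least 0.314). In all, 9 of the 30 comparisons reached the smallest p that 4 against 4 allows, and the adjusted value follows from that number, so that it says little about any single ratio.

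**Figure D5:**
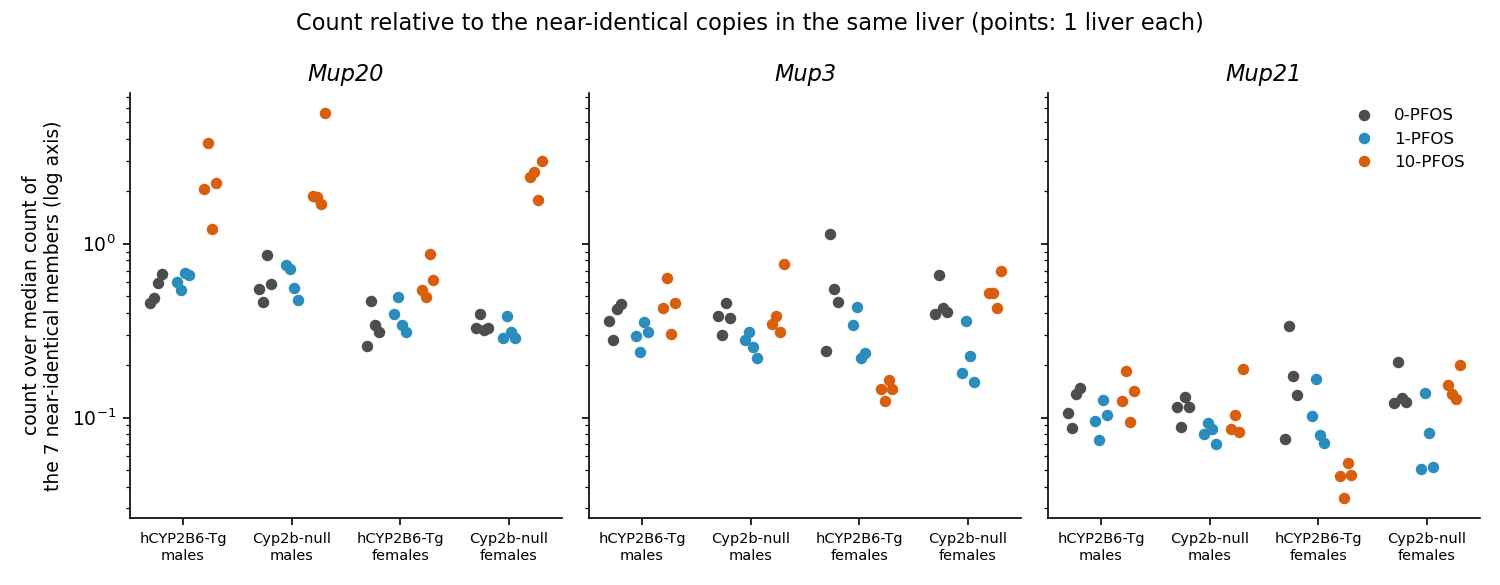
Count of Mup20, Mup3 and Mup21 divided by the median count of the 7 near-identical copies in the same library (log axis), by sex, genotype and dose. For Mup20 all 16 livers at 10-PFOS lie at or above 0.494, and hCYP2B6-Tg females at 10-PFOS lie below Cyp2b-null females at 10-PFOS for all 3 genes.

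Of the 15 further Mup rows, 15 were called lower at 10-PFOS in hCYP2B6-Tg males and 15 in Cyp2b-null males. In hCYP2B6-Tg females 14 were called lower and in Cyp2b-null females 13. The shares of all genes called lower were 23.9%, 21.6%, 24.5% and 17.8% in that order. Mup15 had the largest fall in hCYP2B6-Tg males (-6.31), and Mup14 in Cyp2b-null males (-6.14), hCYP2B6-Tg females (-3.60) and Cyp2b-null females (-4.35). The exceptions were 2 pseudogene rows, Mup-ps15 in hCYP2B6-Tg females (-1.71, adjusted p = 0.0897) and Cyp2b-null females (-1.78, adjusted p = 0.0878) and Mup-ps12 in Cyp2b-null females (-0.53, adjusted p = 0.426). At 0-PFOS all 15 were higher in males in both genotypes, with Mup-ps12 the highest at 4.20 in hCYP2B6-Tg mice and 4.41 in Cyp2b-null mice. No further row was called at 1-PFOS.

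Other liver genes are given from lists chosen with earlier results of these data known, so the counts are descriptions. Called lower at 10-PFOS were 23.9% of all tested genes in hCYP2B6-Tg males and 21.6% in Cyp2b-null males. In females it was 24.5% in hCYP2B6-Tg mice and 17.8% in Cyp2b-null mice. Called higher were 24.1%, 22.5%, 22.3% and 19.1% in the same order. The list counts below are read beside these shares. Of the growth hormone and STAT5 axis, the pathway that sustains male-biased Mup expression, none of the genes tested was called higher at 10-PFOS. In hCYP2B6-Tg males 9 of 11 were called lower, in Cyp2b-null males 6 of 11, in hCYP2B6-Tg females 10 of 12 and in Cyp2b-null females 6 of 12. Ghr, the growth hormone receptor, changed by -1.43 ± 0.09 on the log2 scale (SE) in hCYP2B6-Tg males and -1.36 ± 0.09 in Cyp2b-null males. Socs2, a feedback inhibitor of growth hormone signalling, changed by -2.01 ± 0.39 in hCYP2B6-Tg males, -2.05 ± 0.45 in hCYP2B6-Tg females and -2.12 ± 0.45 in Cyp2b-null females, and was at -0.72 ± 0.38 (adjusted p = 0.127 in edgeR) in Cyp2b-null males. Igf1, the main secreted product of growth hormone action in liver, changed by -1.85 ± 0.14 in Cyp2b-null females. Whether these genes have a part in the Mup levels was not tested.

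Male-biased liver genes other than Mup did not share 1 direction. At 0-PFOS males were higher for 13 of 14 in hCYP2B6-Tg mice and 14 of 14 in Cyp2b-null mice. At 10-PFOS 3 were called higher and 9 lower of 14 in hCYP2B6-Tg males, against 24.1% and 23.9% of all genes. In Cyp2b-null males 2 were called higher and 9 lower of 14, against 22.5% and 21.6%. These 2 were Cyp4a12a and Cyp4a12b, with near-equal fold changes (1.32 and 1.34). In hCYP2B6-Tg males the genes called higher were the same 2 and Selenbp2 (0.49). In hCYP2B6-Tg females 6 were called higher and 4 lower of 12 (22.3% of all genes higher and 24.5% lower). In Cyp2b-null females 6 were called higher and 5 lower of 12 (19.1% higher and 17.8% lower). Hsd3b5, a steroid dehydrogenase isoform of male liver, had at most 0.108 CPM in hCYP2B6-Tg males at 10-PFOS, against 32.6 to 145 CPM at 0-PFOS, and at most 0.125 CPM in Cyp2b-null males at 10-PFOS, against 1.94 to 66.6 CPM at 0-PFOS. Slco1a1, an organic anion uptake carrier, changed by -7.48 ± 0.35 in hCYP2B6-Tg males, -6.29 ± 0.33 in Cyp2b-null males, -3.25 ± 0.70 in hCYP2B6-Tg females and -2.48 ± 0.70 in Cyp2b-null females. In hCYP2B6-Tg females Slco1a1 had 3.11 to 4.05 CPM at 10-PFOS, against 2.94 to 99.2 CPM at 0-PFOS, with overlap, and without hCYP2B6-Tg female 0-PFOS replicate 1 its value was -1.71 (adjusted p = 0.0118 in edgeR). Cyp4a12a, a fatty acid hydroxylase of male liver, went the other way in both sexes. Its values were 1.36 ± 0.16 in hCYP2B6-Tg males and 1.32 ± 0.16 in Cyp2b-null males. They were 8.38 ± 0.37 in hCYP2B6-Tg females and 8.27 ± 0.37 in Cyp2b-null females.

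Female-biased liver genes, which depend on the steadier growth hormone of females, were lower in males than in females at 0-PFOS for 14 of 21 in both genotypes, with 0 higher. At 10-PFOS 9 were called higher and 5 lower of 15 in hCYP2B6-Tg males, 8 higher and 3 lower of 15 in Cyp2b-null males, 7 higher and 10 lower of 21 in hCYP2B6-Tg females and 7 higher and 11 lower of 21 in Cyp2b-null females. The list holds Cyp2b9 and Cyp2b13, which every mouse is labelled as lacking. These, with Cyp3a16, Cyp3a41a, Cyp3a41b and Cyp3a44, were called higher at 10-PFOS in both sexes and genotypes. None of them was called different between the sexes at 0-PFOS in either genotype. The Cyp3a rows had near-equal fold changes (2.44 to 2.46 in Cyp2b-null males). Hao2 and Fmo2, lower in males at 0-PFOS, were called higher at 10-PFOS in both male groups, and Prom1 in hCYP2B6-Tg males. Adgrf1, an adhesion receptor on this list, was not called different between the sexes at 0-PFOS in either genotype. It had at most 0.0760 CPM in hCYP2B6-Tg males at 10-PFOS, against 5.62 to 15.01 CPM at 0-PFOS. In hCYP2B6-Tg females it had at most 0.0777 CPM at 10-PFOS, against 9.19 to 15.2 CPM at 0-PFOS. A1bg, a secreted protein of the immunoglobulin superfamily, had at most 0.117 CPM in Cyp2b-null females at 10-PFOS, against 17.1 to 77.9 CPM at 0-PFOS. Of the acute phase genes, which liver makes during inflammation, 1 was called higher and 7 lower of 12 in both male groups. In hCYP2B6-Tg females 5 were called higher and 1 lower of 13. In Cyp2b-null females 2 were called higher and 3 lower of 13, near the shares of all genes (19.1% higher and 17.8% lower). Saa1, serum amyloid A, was at -4.42 ± 1.23 in hCYP2B6-Tg males, where the call was lost without hCYP2B6-Tg male 0-PFOS replicate 1 (-2.34, adjusted p = 0.0742 in edgeR), at -6.42 ± 1.35 in Cyp2b-null males, where it was -4.01 without Cyp2b-null male 0-PFOS replicate 3, and at 2.97 ± 1.19 in hCYP2B6-Tg females, where it turned to -1.98 (adjusted p = 0.0426) without hCYP2B6-Tg female 10-PFOS replicate 2.

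The abundant plasma proteins, which hepatocytes also secrete, were lower by a smaller amount. Of 26 tested, 22 were called lower in hCYP2B6-Tg males, 23 in Cyp2b-null males, 21 in hCYP2B6-Tg females and 23 in Cyp2b-null females, with 0 called higher and list medians of -0.81, -0.89, -0.59 and -0.70 in that order of groups. Ahsg, fetuin-A, changed by -1.59 ± 0.16 in hCYP2B6-Tg females and -1.56 ± 0.16 in Cyp2b-null females, and the fibrinogen chains Fga and Fgg by -1.62 ± 0.18 and -1.68 ± 0.19 in hCYP2B6-Tg males. Of 8 other lipocalins tested, 4 were lower in hCYP2B6-Tg males, 6 in Cyp2b-null males and 2 each in hCYP2B6-Tg and Cyp2b-null females. Beside the 24.5% and 17.8% of all genes called lower in these female groups, 2 of 8 says little. Apom, the carrier of sphingosine-1-phosphate on lipoproteins, changed by -1.4996 ± 0.12 in hCYP2B6-Tg males, -1.498 ± 0.12 in Cyp2b-null males, -0.95 ± 0.18 in hCYP2B6-Tg females and -1.46 ± 0.18 in Cyp2b-null females, and Lcn2, an acute phase lipocalin, was called higher in hCYP2B6-Tg females (3.98 ± 0.81), where 1 liver at 10-PFOS had 182 CPM and the median was 8.78 CPM, against 1.65 to 5.43 CPM at 0-PFOS. Without that liver, hCYP2B6-Tg female 10-PFOS replicate 2, the value of Lcn2 was 1.26 (adjusted p = 0.0156 in edgeR).

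The remaining lists are given beside the shares of all genes called at 10-PFOS, which were 23.9% lower and 24.1% higher in hCYP2B6-Tg males, 21.6% lower and 22.5% higher in Cyp2b-null males, 24.5% lower and 22.3% higher in hCYP2B6-Tg females and 17.8% lower and 19.1% higher in Cyp2b-null females. Of 20 hepatocyte transcription factors and hormone receptors, 10 were called lower and 3 higher in hCYP2B6-Tg males, 8 lower with 3 higher in Cyp2b-null males, 9 lower with 2 higher in hCYP2B6-Tg females and 6 lower with 1 higher in Cyp2b-null females, with Foxa3, a forkhead factor of hepatocytes, at -1.42 ± 0.16, -1.34 ± 0.16, -1.54 ± 0.18 and -1.33 ± 0.17 in the same order. Of 15 targets of PPARA, the fatty acid receptor, 13 were called higher in hCYP2B6-Tg males, Cyp2b-null males and hCYP2B6-Tg females and 12 in Cyp2b-null females, with 0 lower, and Ehhadh, a peroxisomal oxidation enzyme, changed by 4.10 ± 0.13, 4.18 ± 0.13, 3.96 ± 0.22 and 3.61 ± 0.21. Of the 6 hepatocyte markers, 5 were called lower in both male groups and 4 in both female groups, and of the 5 markers of red cell precursors 5 in both male groups and 4 in both female groups. Of the 6 markers of Kupffer cells and macrophages, 1, 3, 5 and 6 were called lower in hCYP2B6-Tg males, Cyp2b-null males, hCYP2B6-Tg females and Cyp2b-null females. The summed hepatocyte markers lay at 33318 to 48361 CPM at 10-PFOS, against 72908 to 100597 CPM at 0-PFOS, those of red cell precursors at 107 to 395 CPM, against 324 to 862 CPM, and those of Kupffer cells at 48.4 to 114 CPM, against 59.2 to 243 CPM. Sinusoidal endothelium lay at 82.1 to 143 CPM, against 82.6 to 158 CPM, stellate cells at 88.3 to 142 CPM, against 88.5 to 215 CPM, cholangiocytes at 10.7 to 26.3 CPM, against 14.4 to 38.8 CPM, B cells at 0.375 to 3.11 CPM, against 1.66 to 5.95 CPM, T cells at 0.273 to 1.69 CPM, against 0.635 to 3.23 CPM, and neutrophils at 0.884 to 2.75 CPM, against 0.529 to 1.92 CPM, with no marker at 0 in every library. The part of any of these in the Mup levels was not tested.

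Genes outside the family were ranked by how closely their log2 CPM followed the mean log2 CPM of the 10 genes, as a description over libraries that share doses, depth and scaling. Over the 24 male livers the closest 5 were Ces3b (Pearson r = 0.993), Ces3a (0.992), Cyp4f14 (0.990), Gm32643 (0.989) and Sult2a8 (0.989). Over the 24 female livers they were Sult2a8 (0.969), Sult3a2 (0.965), Ces3b (0.959), Ces3a (0.957) and Rgn (0.956). Ces3a and Ces3b are carboxylesterases, Sult2a8 and Sult3a2 sulfotransferases, Cyp4f14 a cytochrome P450 and Rgn the calcium-binding protein regucalcin. Once the group means were taken out, so that only differences between mice of 1 group remained, the closest 5 in males were LOC115489389 (0.802), Sult2a8 (0.797), Ces3b (0.789), Ces3a (0.779) and Arhgap42 (0.760), and in females Gm21286 (0.840), Gm49668 (0.807), Sult3a2 (0.747), Serpina3i (0.741) and C8a (0.734). Ces3a, Ces3b and Sult2a8 in males, and Sult3a2 in females, were thus among the closest 5 by both measures.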

How the data were processed

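The deposited values are raw counts per gene from the authors' pipeline of FastQC, Trim Galore, RSEM alignment to GRCm39 and featureCounts. For tool versions and the treatment of reads with several matches, nothing is given in the sources used here. Of the counts above 0, 91.1% were even, and 100% in the Mup family, so counts are not read as numbers of molecules. Of 170 files, 2 count tables were used, 1 per sex. In each, 25 of 40872 rows were broken across lines and left out (0.0432% of counts in females, 0.0281% in males). The tables of the authors' fold changes and p-values, made with edgeR, and 64 further columns of values per sample were not used.

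Genes above 1 CPM in at least 3 of 4 mice of a group were tested, 13193 in females and 12594 in males. Libraries were scaled by TMM and tested with edgeR 4.0.16 (quasi-likelihood, R 4.3.3) in 1 fit of 24 libraries per sex, and in 1 fit of 48 libraries and 13271 genes for sex. Over 32 comparisons, p-values were adjusted by Benjamini-Hochberg over all tested genes, with a threshold of 0.05. A standard error is the log2 fold change divided by the square root of F. Printed CPM use TMM over all 48 libraries, and log2 CPM a prior count of 2. No pair of libraries of a group agreed within counting noise (lowest chi-square per degree of freedom 34.2), and p-values measure the spread between mice.

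Sequences came from GENCODE M21 and RefSeq, read with Python 3.11.15 and Biopython 1.88, and figures were drawn with matplotlib 3.10.9. The tests were run on simulated data first. Labels number the mice of each group 1 to 4. Deviations from the group means of same-numbered mice were correlated above 0.1 in all 4 pairs for hCYP2B6-Tg against Cyp2b-null females at 1-PFOS only (0.241 to 0.481). The labels do not say that the numbers pair mice, and the reported fits use no pairing. The number enters only as a block in an alternative fit. The alternatives were other scalings (RLE size factors, TMM without Mup rows, library totals for the sum), no filter, the replicate number as a block, the compared groups only, DESeq2 1.42.0 and each mouse left out. All members were named, further Mup rows at the ends of the range, listed genes with the largest called fold changes, and the 5 genes most like the members. The members and lists were chosen with earlier results of these data known.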

Additional observations from a re-analysis of the deposited data

Results flagged for a closer look

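Among 11 items (the 10 genes and their sum) in each of 12 groups, 3 livers lay far from the other 3 of their group by Dixon's test at 95%, which chance alone passes in about 1 of 20 groups. Mup21 was at 525 CPM in hCYP2B6-Tg female 1-PFOS replicate 2, against 150 to 210 CPM in the other 3. It was at 29.9 CPM in Cyp2b-null female 10-PFOS replicate 4, against 7.85 to 11.1 CPM. Mup22 was at 1111 CPM in Cyp2b-null female 0-PFOS replicate 2, against 2519 to 2777 CPM.

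The response to 10-PFOS differed between the sexes by a test of the interaction in edgeR (males minus females, log2). In hCYP2B6-Tg mice this held for Mup1 (-2.70), Mup7 (-2.72), Mup8 (-2.69), Mup10 (-2.70), Mup13 (-2.72), Mup17 (-2.72), Mup22 (-2.55) and Mup20 (-1.86). In Cyp2b-null mice it held for Mup20 (-2.67), Mup3 (-2.003) and Mup21 (-2.12). The 7 near-identical copies are given as 1 measurement. In a fit of the groups compared only, 0 of the 8 in hCYP2B6-Tg mice were called, and in Cyp2b-null mice 1 to 3 were called with single livers left out. Without hCYP2B6-Tg female 0-PFOS replicate 1, Mup7 was at -3.73 and Mup20 at -2.62 in hCYP2B6-Tg mice.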

How the results depend on the processing

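RLE size factors, scaling without Mup rows, no filter, the replicate block and DESeq2 kept 134 of 134 results tested on the 10 genes on the same side of the threshold and in the same direction, and none of the members not called was called by any of them. With the replicate number as a block, the 10 genes were called lower at 10-PFOS in 10 of 10 cases in each combination. The sex by 10-PFOS interaction was called for 8 in hCYP2B6-Tg mice and 3 in Cyp2b-null mice. The block thus changed no call, also in females at 1-PFOS, where same-numbered mice of the genotypes were correlated. Fitting only the groups compared kept 126 of 134, and the 8 interactions of sex with 10-PFOS in hCYP2B6-Tg mice fell below the threshold, leaving 0. With each mouse left out in turn, the count of called interactions ranged from 1 to 3 in Cyp2b-null mice and from 6 to 8 in hCYP2B6-Tg mice, that of sex differences at 10-PFOS in Cyp2b-null mice from 0 to 2, and that of genes lower at 10-PFOS in Cyp2b-null females from 9 to 10. The summed log2 ratios of 10-PFOS to 0-PFOS ranged from -6.31 to -5.83 in hCYP2B6-Tg males, -6.08 to -5.61 in Cyp2b-null males, -3.98 to -2.68 in hCYP2B6-Tg females and -4.39 to -3.78 in Cyp2b-null females. With each mouse left out, an alternative chosen after the values were seen, the calls of Lcn2 and Slco1a1 at 10-PFOS held in each group where they had been made. Depth limits none of these values, since the lowest counts of Mup7 and Mup21 in any library were 2496 and 270, but sequence shared between copies limits what can be said of a single copy. The cause of the changes between settings was not tested.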

Other observations

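Mup-ps15, a pseudogene row of low level, was the family row with the highest fitted difference at 1-PFOS against 0-PFOS in all 4 combinations, at 0.96 in hCYP2B6-Tg males, 1.57 in Cyp2b-null males (adjusted p = 0.0506 in edgeR), 1.83 in hCYP2B6-Tg females and 1.79 in Cyp2b-null females, and none passed the threshold. In males at 1-PFOS the livers split within their group, with 9.73, 11.003, 32.4 and 29.97 CPM in hCYP2B6-Tg males, against 6.81 to 15.4 CPM at 0-PFOS, and 8.26, 10.9, 42.7 and 45.6 CPM in Cyp2b-null males, against 4.68 to 13.5 CPM at 0-PFOS. The row was singled out after its values were seen.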
